A study of Homo sapiens with 6 samples.

Results

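The interleukin 6 (IL6) family genes described here are 10 of the 33890 genes in the deposited expression table. They are the ligand genes IL6, LIF, IL11 and CLCF1, the receptor genes IL6ST, IL6R, OSMR and LIFR, the transcription factor gene STAT3 and the feedback inhibitor gene SOCS3. They were taken as a fixed list of symbols, and all 10 matched 1 listed gene each. Messenger RNA came from LN229, an established adherent cell line from a human glioblastoma. There were 3 libraries of LN229 cells kept in 800 µM ursodeoxycholic acid (UDCA), a bile acid prescribed in cholestatic liver disease, for 48 h, and 3 libraries of LN229 cells cultured without it. Both groups grew in the same serum-containing medium, no genetic change is named for either, and the labels name no vehicle for the control cells. LN229 is 1 line, and the labels leave unsaid if replicate libraries stem from separate cultures. The p-values then reflect the spread between these libraries alone, which may be technical.

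Values are FPKM, reads scaled by exon length and by library total. The length covers all annotated exons of a gene, whichever were transcribed, so levels compare only roughly between genes. Depth, recovered from the values, was 15988951 to 17045218 reads in the UDCA libraries and 16639832 to 17743022 in the control libraries, where 1 read in a gene of 1 kb is worth 0.0564 to 0.0625 FPKM. Most of the transcriptome differed between the groups: of 14380 genes that reached 1 FPKM in at least 3 libraries, 6491 were higher and 5133 lower with UDCA at an adjusted p under 0.05. The median gene changed by 0.095 on the log2(FPKM + 1) scale. Pairs of UDCA libraries that include replicate 3 differed by 2.60 and 2.73 in chi-square per degree of freedom, against 1.67 for the other UDCA pair and 1.68 to 1.94 for control pairs. Mitochondrially encoded genes took 0.0263% to 0.0271% of reads in the UDCA libraries and 3.13% to 3.16% in the control libraries, a gap that moves with every change given here. Among glial and neural genes, NES, VIM, S100B, SOX2 and CD44 were abundant in control cells, while GFAP, the defining intermediate filament of astrocytes, stayed under 1 FPKM in all 6 libraries.

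Cytokines of this family signal through IL6ST, also called gp130, a receptor chain that they share. IL6 first binds IL6R, IL11 binds its own receptor chain, LIF joins gp130 to LIFR, and CLCF1 acts through a receptor that contains gp130 and LIFR. OSMR is the chain that pairs with gp130 for oncostatin M. The assembled receptor activates JAK kinases, which phosphorylate STAT3, and STAT3 then switches on target genes that include SOCS3, whose protein binds gp130 and JAK kinases and damps the signal. In glioblastoma the pathway is known for autocrine IL6 and LIF and for STAT3 activity in tumour cells. Transcript levels do not report phosphorylation of STAT3, which was not measured in these files.

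Of the 10 genes, 8 were higher and 2 were lower with UDCA, all past an adjusted p under 0.05 (limma, Benjamini-Hochberg over all genes tested). The background is wide, since 80.8% of all genes tested passed this threshold, 45.1% higher and 35.7% lower. The groups did not overlap for any of the 10 genes, and did not overlap for 82.8% of all genes tested. The count of genes past the threshold is therefore near the background and is not a result about this family, and the sizes of the changes carry the description. By the ratio of mean FPKM, 5 of the 10 were at least 2-fold apart, against 33.7% of all genes tested. The call of OSMR depended on the scaling between libraries, as given with its values. All 10 passed the minimum level, IL6 through its UDCA libraries alone, so it could pass only by being high there. The direction and lack of overlap of IL6 were thus set by the filter, though it is counted among the 8 and the 5 above.

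**Figure D1:**
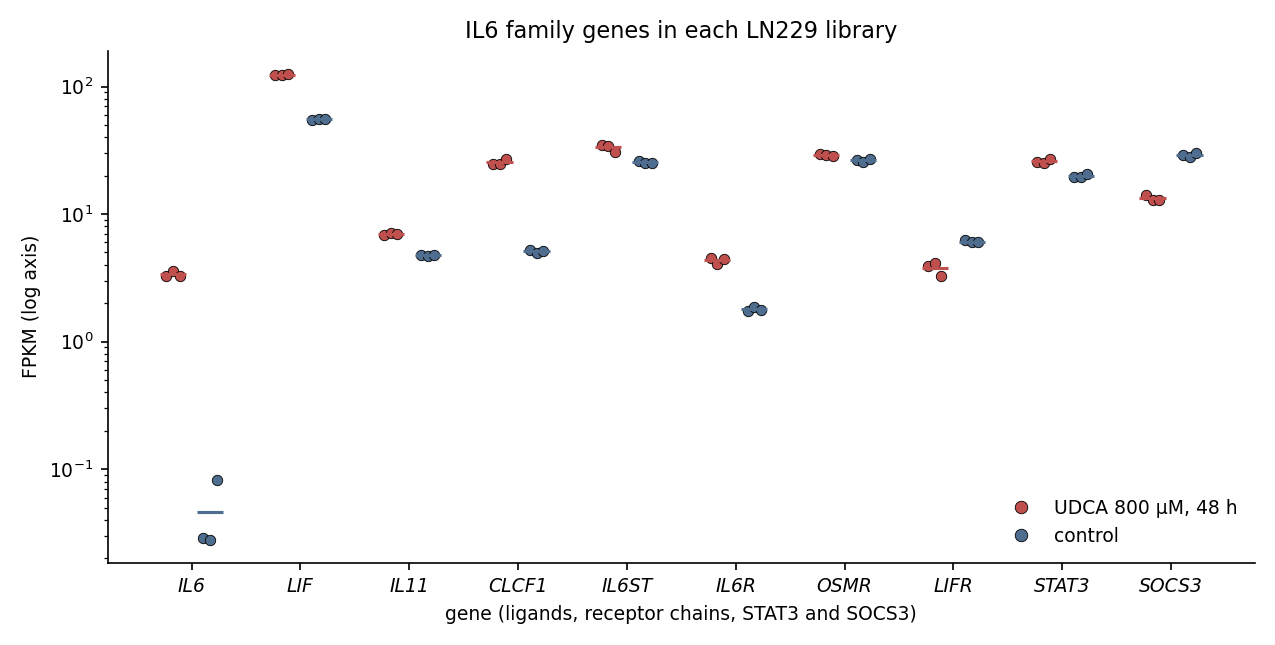
FPKM (log axis) of each IL6 family gene in every library, UDCA points left of control points for each gene, with a line at the mean of 3 libraries. IL6 lies between 3.25 and 3.57 FPKM with UDCA and under 0.1 FPKM in control, and LIF is the most abundant of the 10 in both groups.

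The promoters of IL6, IL11 and LIFR are shown as examples, both ligands higher with UDCA and LIFR lower. Promoter windows of 250 bases before to 50 bases after the RefSeq start (GRCh38.p14) were found for 8 of the 10 genes, all except LIF and CLCF1. Each was searched on both strands for 7 motifs. TTCNNNGAA stands for STAT dimers, TTGCNNAA for C/EBP factors and TGATGNAA for CHOP with ATF4. Shorter ones were TGANTCA for AP-1 factors, then ACGTCA for the core of the cyclic AMP response element, then TATAAA for the TATA box. The NF-kappaB consensus was the last. Capitals mark the matches, which did not overlap one another in the windows shown. The windows are chr7:22726950-22727249 (plus strand) for IL6, chr19:55370414-55370713 (minus strand) for IL11 and chr5:38595356-38595655 (minus strand) for LIFR.
IL6: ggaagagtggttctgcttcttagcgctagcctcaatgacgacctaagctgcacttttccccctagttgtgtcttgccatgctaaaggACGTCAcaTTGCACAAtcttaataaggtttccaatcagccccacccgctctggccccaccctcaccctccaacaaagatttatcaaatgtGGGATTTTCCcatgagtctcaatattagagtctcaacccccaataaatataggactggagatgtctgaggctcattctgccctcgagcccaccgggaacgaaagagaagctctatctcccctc
IL11: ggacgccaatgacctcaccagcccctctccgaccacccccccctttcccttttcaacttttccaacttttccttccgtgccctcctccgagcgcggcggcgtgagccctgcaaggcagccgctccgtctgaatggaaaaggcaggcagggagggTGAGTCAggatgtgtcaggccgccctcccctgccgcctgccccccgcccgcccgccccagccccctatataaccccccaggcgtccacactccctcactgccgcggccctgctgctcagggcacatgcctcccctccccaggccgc
LIFR: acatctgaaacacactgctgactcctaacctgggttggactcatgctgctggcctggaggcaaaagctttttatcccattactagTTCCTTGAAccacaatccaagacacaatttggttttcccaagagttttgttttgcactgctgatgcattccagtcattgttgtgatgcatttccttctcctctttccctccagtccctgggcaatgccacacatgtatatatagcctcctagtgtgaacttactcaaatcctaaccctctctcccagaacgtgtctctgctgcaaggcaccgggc
The IL6 window holds, from left to right, a cyclic AMP element core at positions -163 to -158, a C/EBP match at -155 to -148 and an NF-kappaB match at -73 to -64, counted from the start. The IL11 window holds 1 AP-1 match at -96 to -90, and the LIFR window 1 STAT match at -165 to -157. Among all 35116 RefSeq windows of this length, 7.98% held the cyclic AMP element core, 10.5% the C/EBP motif, 5.91% the NF-kappaB consensus, 7.71% the AP-1 motif and 7.66% the STAT motif. The CHOP and ATF4 motif (3.62% of all windows) and the exact letters TATAAA (11.5%) had no match in any of the 8 windows. Variant TATA letters were not searched, such as tatataa in the IL11 window and tatatata in the LIFR window. Lack of a TATA box therefore does not follow. OSMR held 1 C/EBP and 1 AP-1 match and IL6R 1 AP-1 match, while IL6ST, STAT3 and SOCS3 held none of the 7 motifs. SOCS3 fell more than LIFR, and IL6ST and STAT3 rose, so the windows shown do not stand for all genes that rose or fell. The RefSeq start lies 848 bases upstream of the GENCODE 29 start of SOCS3, so its window is outside the gene as counted. It lies 12949 bases inside LIFR and 1316 bases inside IL6, and within 154 bases of the GENCODE 29 start for the other 5 genes. The windows of SOCS3, LIFR and IL6 therefore do not cover the outermost start of the gene as counted. A match describes letters in this window and is not a measured binding site.

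The ligand genes were all higher with UDCA, by unequal factors. IL6 (ENSG00000136244, chromosome 7, 22725884 to 22732002, GRCh38), the founding cytokine of the family and an inducer of the acute-phase response, stood at 3.29, 3.57 and 3.25 FPKM in the UDCA libraries and at 0.0290, 0.0281 and 0.0817 FPKM in the control libraries. Every UDCA library was far above every control library. IL6 passed the minimum level through its UDCA libraries alone, so its direction and lack of overlap were set by the filter. The adjusted p given below adds no support for that direction. These values rest on 109, 126 and 114 reads with UDCA and on 1, 1 and 3 reads in control, at or under the 3 reads taken as the floor in each control library. The ratio of read shares was 72.0, with a 95% exact interval of 30.6 to 223 that covers counting error only. The fitted log2 change was 2.06 (SE 0.0701, adjusted p = 2.55e-07, limma) on the log2(FPKM + 1) scale, which compresses a gene this low; it was 4.59 with a pseudocount of 0.1. An antisense gene shares 20.7% of the exon bases of IL6 and was listed at 0.0459 to 0.216 FPKM with UDCA and at 0 to 0.248 FPKM in control; whether strand was used in counting is not given in the sources used here.

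LIF (chromosome 22, 30240447 to 30246851), leukemia inhibitory factor, which supports stem cell self-renewal in mouse embryonic stem cells, was the most abundant of the 10 genes. It stood at 123, 122 and 125 FPKM in the UDCA libraries and at 54.6, 55.9 and 55.5 FPKM in the control libraries. The spread within a group was small beside the gap: the means were 124 ± 1.49 FPKM with UDCA and 55.3 ± 0.708 FPKM in control (SD, n = 3 each), a 2.24-fold rise with a log2 change of 1.15 (SE 0.0198, adjusted p = 1.14e-08, limma). It stood above 98.5% of all genes tested in level with UDCA and above 95.5% in control. A gene on the opposite strand that shares 4.41% of the exon bases of LIF was listed at 10.9 to 12.8 FPKM with UDCA and at 4.12 to 5.71 FPKM in control; its part in the LIF values was not tested.

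CLCF1 (chromosome 11, 67364168 to 67374177), cardiotrophin-like cytokine factor 1, stood at 24.8, 24.7 and 27.1 FPKM in the UDCA libraries and at 5.23, 4.92 and 5.17 FPKM in the control libraries. That is 25.5 ± 1.37 FPKM with UDCA and 5.10 ± 0.168 FPKM in control (SD, n = 3 each), a ratio of means of 5.00 and a log2 change of 2.12 (SE 0.0456, adjusted p = 3.00e-08, limma). Its change was higher than that of 98.1% of all genes tested.

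IL11 (chromosome 19, 55364389 to 55370463), known for effects on platelet precursors and for fibrosis, moved least among the ligands. It stood at 6.88, 7.09 and 7.01 FPKM in the UDCA libraries and at 4.79, 4.70 and 4.75 FPKM in the control libraries. The groups were apart with little spread in either, a 1.47-fold rise with a log2 change of 0.48 (SE 0.0357, adjusted p = 1.50e-05, limma).

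Summed over the 4 ligands, levels were 160 ± 2.68 FPKM with UDCA and 65.2 ± 0.535 FPKM in control (SD, n = 3 each). LIF made up 77.5% ± 0.460 of that sum with UDCA and 84.8% ± 0.436 in control. The share of CLCF1 was 16.0% ± 0.587 with UDCA and 7.83% ± 0.308 in control, while IL6 held 2.11% ± 0.138 with UDCA and 0.0709% ± 0.0467 in control. IL11 took 4.38% ± 0.0990 of the sum with UDCA and 7.28% ± 0.128 in control, so its share was lower although its level was higher. The ligand sum over the sum of the 4 receptor genes was 2.28 ± 0.149 with UDCA and 1.09 ± 0.0267 in control. These are transcript levels per length and say nothing of secreted protein.

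The receptor genes went in both directions. IL6ST (chromosome 5, 55935095 to 55994993), the shared gp130 chain, stood at 35.1, 34.4 and 30.4 FPKM in the UDCA libraries and at 25.9, 24.9 and 25.4 FPKM in the control libraries. All UDCA libraries were above all control libraries, but UDCA replicate 3 was lower than the other UDCA libraries. The ratio of means was 1.31 and the log2 change 0.38 (SE 0.0537, adjusted p = 0.000486, limma), or 0.44 without UDCA replicate 3.

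IL6R (chromosome 1, 154405193 to 154469450), the chain that binds IL6 and is also released as a soluble receptor, stood at 4.51, 4.04 and 4.46 FPKM in the UDCA libraries and at 1.73, 1.88 and 1.76 FPKM in the control libraries. The lowest UDCA library was above the highest control library by more than the spread of either group. The ratio of means was 2.42 and the log2 change 0.93 (SE 0.0586, adjusted p = 5.76e-06, limma).

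OSMR (chromosome 5, 38845858 to 38945596), the oncostatin M receptor chain, was close to level. It stood at 29.5, 28.8 and 28.3 FPKM in the UDCA libraries and at 26.6, 25.7 and 27.2 FPKM in the control libraries. The groups did not overlap, with a ratio of means of 1.09 and a log2 change of 0.12 (95% interval 0.0477 to 0.19, adjusted p = 0.00816, limma). That call was lost with scaling by the median ratio of genes, where the log2 change was 0.012 (adjusted p = 0.735), and with totals that leave out mitochondrially encoded genes, where it was 0.075 (adjusted p = 0.0519). The other 9 family genes kept their direction and call with those totals.

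LIFR (chromosome 5, 38474963 to 38608354), the chain used by LIF and CLCF1, was the member of these 4 that fell. It stood at 3.91, 4.13 and 3.29 FPKM in the UDCA libraries and at 6.22, 6.02 and 6.03 FPKM in the control libraries. UDCA replicate 3 was the lowest here as well, and all UDCA libraries were below all control libraries. Mean levels were 1.61-fold lower with UDCA, with a log2 change of -0.57 (SE 0.0715, adjusted p = 0.000233, limma).

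**Figure D2:**
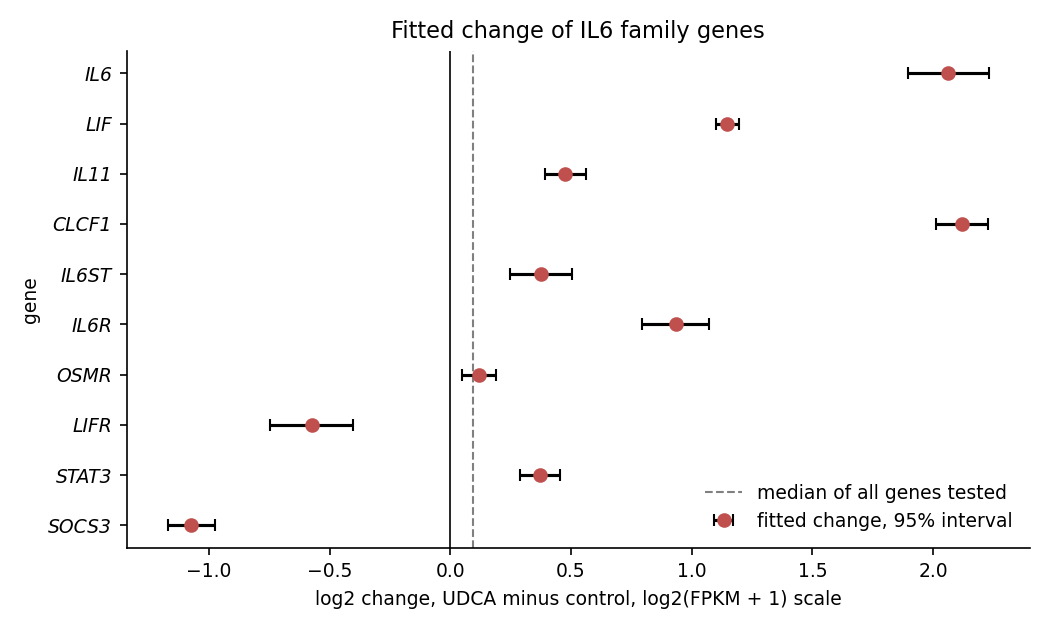
Fitted log2 change (UDCA minus control, log2(FPKM + 1) scale) of each IL6 family gene with its 95% interval from limma; the dashed line is the median of all genes tested. CLCF1 and IL6 lie near 2, OSMR overlaps the dashed line, and LIFR and SOCS3 are below 0.

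The receptor chains were also compared as ratios within each library. In ratios of FPKM as deposited, scaling between libraries cancels. The tests used log2 ratios with 1 FPKM added to each level, where it does not cancel fully and differences are smaller. OSMR stood at 7.54, 6.97 and 8.61 times LIFR in the UDCA libraries and at 4.28, 4.27 and 4.51 times LIFR in the control libraries. The ratio was higher in every UDCA library than in any control library (difference of mean log2 ratios 0.69, or 0.82 with nothing added, exact 2-sided permutation p = 0.1, which is the smallest p that 3 against 3 allows, so it cannot reach 0.05). IL6R stood at 0.128, 0.117 and 0.147 times IL6ST in the UDCA libraries and at 0.0669, 0.0755 and 0.0695 times IL6ST in the control libraries, again without overlap (difference of mean log2 ratios 0.56, or 0.88 with nothing added, exact 2-sided permutation p = 0.1). In both groups IL6R was thus the scarcer chain by a wide margin.

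**Figure D3:**
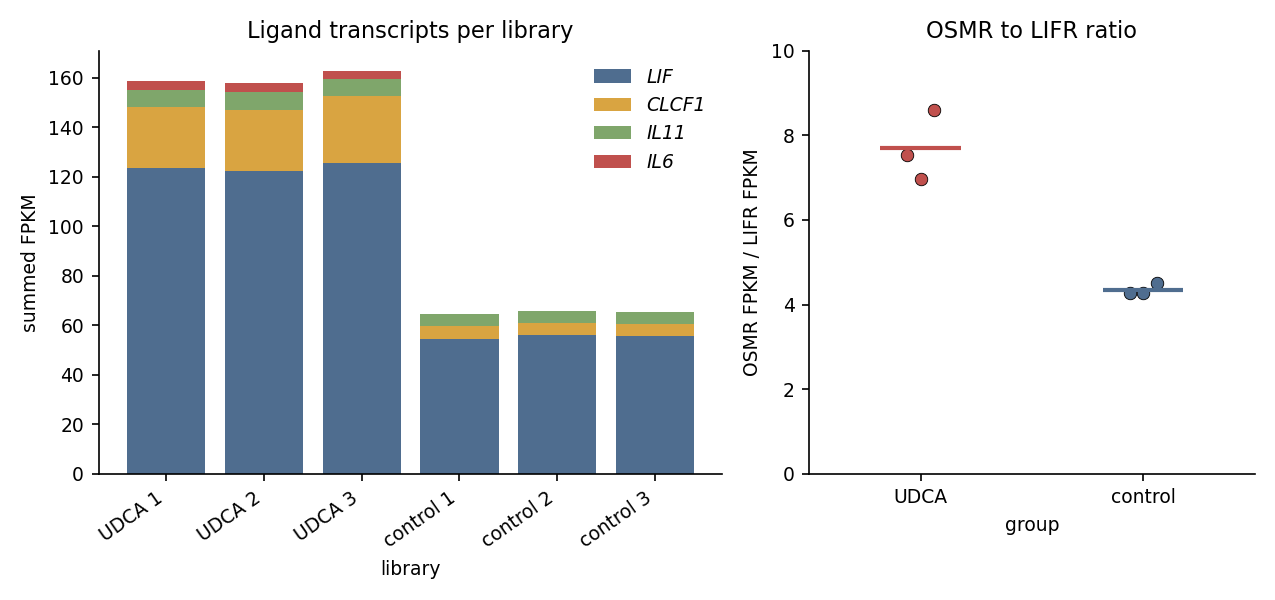
Left, FPKM of the 4 ligand genes stacked for each library; right, OSMR FPKM divided by LIFR FPKM in each library, with a line at the mean of 3. Stacks reach 158 to 163 FPKM with UDCA and 64.6 to 65.6 FPKM in control, and the ratio is 6.97 to 8.61 with UDCA and 4.27 to 4.51 in control.

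STAT3 (chromosome 17, 42313324 to 42388568), the main transcription factor of the pathway, stood at 25.6, 25.3 and 27.1 FPKM in the UDCA libraries and at 19.6, 19.6 and 20.4 FPKM in the control libraries. All UDCA libraries were higher, by a ratio of means of 1.31 and a log2 change of 0.37 (SE 0.0350, adjusted p = 5.03e-05, limma). SOCS3 (chromosome 17, 78356778 to 78360077), the STAT3-induced inhibitor of gp130 signalling, went the other way. It stood at 14.0, 13.0 and 13.0 FPKM in the UDCA libraries and at 29.2, 28.2 and 30.0 FPKM in the control libraries. The means were 13.3 ± 0.623 FPKM with UDCA and 29.1 ± 0.934 FPKM in control (SD, n = 3 each), 2.19-fold lower with a log2 change of -1.07 (SE 0.0407, adjusted p = 4.36e-07, limma). Its change was higher than that of only 10.7% of all genes tested. SOCS3 fell while LIF, CLCF1, IL11 and STAT3 rose in the same libraries.

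By level, the order of the genes was different in the 2 groups. With UDCA it ran LIF, IL6ST, OSMR, STAT3, CLCF1, SOCS3, IL11, IL6R, LIFR and IL6, where the library ranges of STAT3 and CLCF1, of IL6R and LIFR, and of LIFR and IL6 overlapped. In control it ran LIF, SOCS3, OSMR, IL6ST, STAT3, LIFR, CLCF1, IL11, IL6R and IL6, where only the ranges of OSMR and IL6ST overlapped among neighbours. SOCS3 was thus sixth with UDCA and second in control.

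Around these genes, 74 further genes in 8 lists by role were counted, of which 71 were listed and 57 tested. Of the 57, 30 were higher, 23 lower and 4 not past the threshold with UDCA, against 45.1% higher and 35.7% lower among all genes tested. Among the 57, CNTF, IL11RA and BIRC5 reached the minimum level through their control libraries alone, and STAT6 through its UDCA libraries alone. These 4 could pass only by being high there, so their direction was set by the filter, as it was for 12.3% of all genes tested. The remaining ligands were scarce. OSM, CTF1 and EBI3 stayed under the minimum level, and IL27 and IL31 are not analysed here. CNTF, ciliary neurotrophic factor, was the 1 ligand tested, through its control libraries alone, at 0.200 ± 0.0429 FPKM with UDCA and 1.27 ± 0.216 FPKM in control. OSM, the ligand of OSMR, stood at 0.178, 0.167 and 0.167 FPKM with UDCA and at 0.028, 0.110 and 0 FPKM in control.

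Among the other receptors 3 were tested, 2 of them with libraries of both groups at or above the minimum level. IL31RA, which pairs with OSMR to bind interleukin 31, rose 12.6-fold to 12.7 ± 0.282 FPKM with UDCA, against 1.01 ± 0.0859 FPKM in control (adjusted p = 1.35e-08, limma). IL27RA, the interleukin 27 receptor chain that pairs with gp130, rose 1.82-fold to 6.09 ± 0.763 FPKM, against 3.35 ± 0.253 FPKM in control. IL11RA, the receptor chain for IL11, was at 0.314 ± 0.0153 FPKM with UDCA and 1.30 ± 0.0297 FPKM in control, so it too was tested through its control libraries alone. The CNTF receptor chain CNTFR was at or near 0 in all libraries.

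The 3 kinases tested were higher with UDCA, as were 45.1% of all genes tested. JAK1, the kinase that gp130 depends on most, stood at 45.6 ± 0.0724 FPKM with UDCA and 23.5 ± 0.830 FPKM in control, and JAK2 at 8.79 ± 0.507 FPKM with UDCA and 3.31 ± 0.338 FPKM in control. TYK2 rose 1.42-fold, and JAK3 stayed under the minimum level. In the list of STAT factors 4 genes were tested. STAT2, a factor of interferon signalling, rose 1.80-fold to 28.5 ± 0.406 FPKM, STAT5B rose 1.60-fold and STAT5A rose 1.81-fold. STAT6, at 1.21 ± 0.0397 FPKM with UDCA and 0.839 ± 0.142 FPKM in control, passed the minimum level through its UDCA libraries alone. Its call (adjusted p = 0.0199, limma) was lost with median-ratio scaling (adjusted p = 0.051), without UDCA replicate 3 (0.0595), without control replicate 1 (0.0501) and without the filter on low values (0.0628).

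Inhibitors and phosphatases split, with 4 of 12 tested higher, 6 lower and 2 not past the threshold. Among all genes tested 45.1% were higher and 35.7% lower, and this small list was not tested against those shares. SOCS1, CISH and PTPN6 were under the minimum level. SOCS7 rose 2.14-fold to 15.8 ± 0.306 FPKM with UDCA, against 7.39 ± 0.199 FPKM in control, and SOCS2, an inhibitor of growth hormone signalling, rose 1.88-fold. PIAS4 rose 1.83-fold, while PIAS3, whose protein binds STAT3 and inhibits its DNA binding, was 1.32-fold lower at 8.23 ± 0.148 FPKM with UDCA and 10.9 ± 0.0916 FPKM in control (named after its values were seen). SOCS6 was 1.78-fold lower and PTPN2, a phosphatase of JAK and STAT proteins, rose 1.33-fold. PTPN1, another phosphatase in the list, was 1.46-fold lower, at 24.5 ± 0.604 FPKM with UDCA and 35.7 ± 1.09 FPKM in control. PIAS2, SOCS4 and PIAS1 were lower by ratios of 1.55, 1.27 and 1.22. PTPN1, PIAS2, SOCS4 and PIAS1 were named after their values were seen. SOCS5 was at 1.35 ± 0.181 FPKM with UDCA and 1.46 ± 0.0900 FPKM in control (adjusted p = 0.479, limma). PTPN11, the phosphatase SHP2 that binds gp130 at the site SOCS3 uses, was at 42.8 ± 0.201 FPKM with UDCA and 41.5 ± 0.343 FPKM in control, not past the threshold (adjusted p = 0.0683, limma); its log2 change was 0.044 as fitted and -0.064 with median-ratio scaling (adjusted p = 0.0175).

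**Figure D4:**
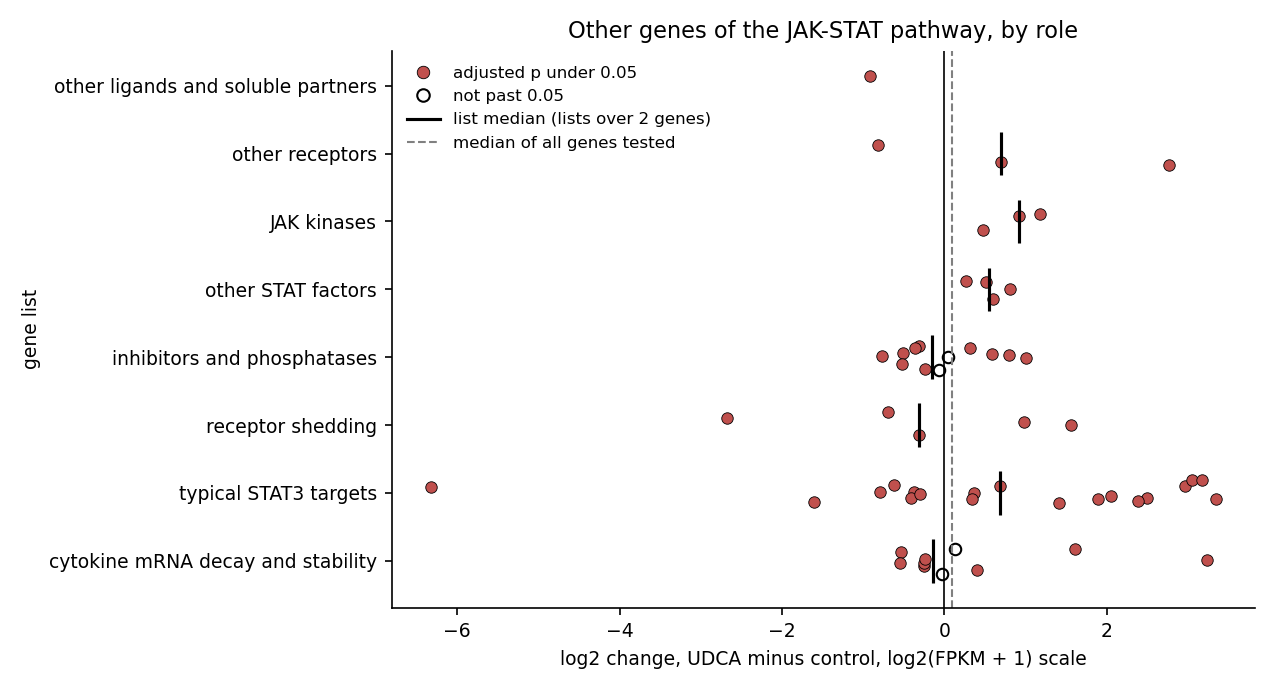
Fitted log2 change (UDCA minus control, log2(FPKM + 1) scale) of each tested gene in the 8 lists around the IL6 family; filled points passed an adjusted p under 0.05, black bars are list medians and the dashed line is the median of all genes tested. All JAK and STAT genes plotted lie right of 0, and STAT3 targets reach from -6.33 to 3.34.

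Genes for shedding of membrane proteins, the process that frees soluble IL6R, also moved in both directions, 2 of 5 higher and 3 lower. The shares over all genes tested were 45.1% higher and 35.7% lower. ADAM17, a protease that cuts IL6R, rose 3.33-fold to 17.6 ± 0.146 FPKM with UDCA, against 5.28 ± 0.231 FPKM in control (adjusted p = 4.54e-08, limma). RHBDF2, which helps ADAM17 to mature, rose 2.69-fold, and TIMP3, an inhibitor of ADAM17, was 6.57-fold lower, at 33.4 ± 1.08 FPKM with UDCA and 220 ± 6.54 FPKM in control. ADAM10, a related protease, was 1.68-fold lower, at 9.96 ± 0.313 FPKM with UDCA and 16.8 ± 0.267 FPKM in control. In control ADAM10 thus stood above ADAM17. RHBDF1, a relative of RHBDF2, was 1.28-fold lower. Shedding itself was not measured.

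Of 19 tested STAT3 target genes, 12 rose and 7 fell, where 45.1% of all genes tested were higher and 35.7% lower. BIRC5, among the 7, passed the minimum level through its control libraries alone. The median log2 change of the list was 0.69 beside 0.095 over all genes tested. These genes were chosen with earlier results of these data known, so that median is no test of STAT3 output. Several of them are also known targets of NF-kappaB, AP-1 or the cell cycle, so the list is not specific to STAT3. The kinase gene PIM3 rose 4.23-fold and its relative PIM1 rose 3.05-fold to 13.0 ± 0.175 FPKM with UDCA, against 4.26 ± 0.211 FPKM in control. JUNB, an AP-1 subunit, rose 5.34-fold, MYC rose 6.57-fold to 33.3 ± 1.42 FPKM, against 5.07 ± 0.474 FPKM in control, and BCL3, a nuclear IkappaB protein, rose 1.67-fold. CEBPD, a C/EBP factor known to act on IL6, stood at 38.0, 40.1 and 32.2 FPKM in the UDCA libraries, against 3.61, 3.58 and 4.32 FPKM in the control libraries. CEBPB, first described as a nuclear factor for IL6 expression, stood at 138, 149 and 118 FPKM in the UDCA libraries, against 36.9, 33.2 and 36.2 FPKM in the control libraries. UDCA replicate 3 was the lowest of its group for both, yet above all control libraries. The survival gene MCL1 was lower, at 106 ± 2.07 FPKM with UDCA and 164 ± 0.664 FPKM in control. BCL2L1, which encodes the related protein BCL-XL, was lower too, at 5.81 ± 0.198 FPKM with UDCA and 8.04 ± 0.238 FPKM in control. These genes, and A2M and SERPINA3 below, were named after their values were seen. By the rule of largest changes the list is led by BIRC5 (log2 change -6.33), IRF1 (3.34), VEGFA (3.18) and ICAM1 (3.06). The remaining tested targets were HIF1A, BCL6 and CCND1, lower with UDCA by ratios of 1.74, 1.32 and 1.23, and TIMP1, which rose 1.29-fold. Acute-phase genes of liver differed. A2M, alpha-2-macroglobulin, an acute-phase protein in the rat, rose 1.28-fold to 56.6 ± 1.43 FPKM with UDCA, against 44.3 ± 0.857 FPKM in control (adjusted p = 1.83e-05, limma). In contrast, SAA1, FGB, FGG, HAMP and LRG1 stayed under the minimum level, CRP is not analysed here, and SERPINA3 was 4.76-fold lower, at 1.19 ± 0.139 FPKM with UDCA and 5.66 ± 0.372 FPKM in control.

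Factors that bind cytokine messages were tested as a last list, in which 3 of 10 were higher, 5 lower and 2 not past the threshold. Over all genes tested the shares were 45.1% higher and 35.7% lower. ZC3H12A, which encodes Regnase-1, an endonuclease that cuts IL6 messenger RNA, rose 11.7-fold to 43.1 ± 0.348 FPKM with UDCA, against 3.68 ± 0.291 FPKM in control (adjusted p = 5.67e-09, limma). ZFP36, the decay factor tristetraprolin, rose 3.32-fold to 25.3 ± 1.97 FPKM with UDCA, against 7.62 ± 0.341 FPKM in control. KHSRP and HNRNPD, which also bind AU-rich messages, were 1.46-fold and 1.47-fold lower. ZFP36L1, ZFP36L2 and ELAVL1 were lower by smaller ratios of 1.19 to 1.20, and RC3H2, a roquin gene, rose 1.36-fold. Its relative RC3H1 was at 3.67 ± 0.181 FPKM with UDCA and 3.27 ± 0.136 FPKM in control (adjusted p = 0.0587, limma). ARID5A, which stabilizes IL6 messenger RNA, was at 6.97 ± 0.482 FPKM with UDCA and 7.15 ± 0.775 FPKM in control (adjusted p = 0.745, limma).

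The profiles most like those of the family genes were sought among 11272 tested protein-coding genes, by Euclidean distance of log2(FPKM + 1) over the 6 libraries after each gene was centred on its control mean. With 2 groups, this measure mostly finds genes with the same size of change on the log2(FPKM + 1) scale. KLF4 (distance 0.0683), PIM3 (0.0768) and PLEKHH2 (0.0928) were nearest to IL6. Their ratios of mean FPKM were 5.30 for KLF4, 4.23 for PIM3 and 5.00 for PLEKHH2, far under the ratio of read shares of 72.0 for IL6, whose control level at the floor is compressed by the 1 FPKM added. Nearest to CLCF1 were SYNGR2 (0.039), SYNE1 (0.0792) and YARS (0.1). EAF1 (0.0313), TXNIP (0.0367) and FYCO1 (0.0407) were nearest to LIF, NBPF9 (0.0373) to STAT3, and ANKRD44 (0.0676) to SOCS3.

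Leukocytes are a common source of IL6, and their markers were near 0. Of 7 leukocyte markers 6 were listed, all under 1 FPKM in every library, and their sum was 0.127 to 0.631 FPKM in the UDCA libraries and 0.415 to 0.775 FPKM in the control libraries, with CD3E at 0 in all UDCA libraries. Endothelial markers summed to 0.585 to 0.682 FPKM with UDCA and 0.192 to 0.280 FPKM in control, with CDH5 at 0 in all control libraries. Fibroblast markers, led by LUM, summed to 9.32 to 10.2 FPKM with UDCA and 18.9 to 19.4 FPKM in control. LUM fell, while PDGFRB rose to 2.92 ± 0.247 FPKM with UDCA, against 1.70 ± 0.159 FPKM in control (adjusted p = 0.000433, limma). Epithelial markers, of which KRT18 made up nearly all, summed to 14.3 to 16.1 FPKM with UDCA and 15.5 to 16.8 FPKM in control, with CDH1 at 0 in all control libraries. Neuronal markers summed to 4.29 to 5.24 FPKM with UDCA and 6.06 to 6.87 FPKM in control. Glioma and neural markers summed to 164 to 167 FPKM with UDCA and 749 to 765 FPKM in control. Of the 7 tested, 5 fell: SOX2 29.9-fold, S100B 22.8-fold, VIM 2.57-fold, CD44 1.48-fold and NES, at 26.9 ± 0.280 FPKM with UDCA and 148 ± 4.39 FPKM in control. Among all genes tested 35.7% were lower and 45.1% higher, and this small list was not tested against those shares. EGFR rose 1.36-fold, and OLIG2 was at 4.81 ± 0.160 FPKM with UDCA and 4.59 ± 0.509 FPKM in control (adjusted p = 0.467, limma). The part of these markers and of the mitochondrial share in the changes of the IL6 family was not tested. In bulk RNA, more cells that express a gene and more RNA per cell cannot be told apart.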

How the data were processed

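Polyadenylated RNA was made into Illumina TruSeq libraries, per the labels' protocols. HISAT2, Bowtie2 2.0.6 and GRCh38 appear in the submitters' processing notes without stated roles. How reads were counted, and whether strand was used, is not given in the sources used here. Like IL6 and LIF above, other family genes share exon bases with another gene. A gene on the opposite strand shares 8.58% of the exon bases of IL6ST, 5.30% of LIFR and 3.19% of OSMR. For CLCF1 the overlap is 3.09%, with a gene on the same strand. The part of these overlaps in the values was not tested. Values as deposited carry no unit and were read as FPKM made by the authors: each value times the merged exon length in GENCODE 29 (Ensembl 94) was a whole multiple of 1 step per library for 100% of values, within 0.01 reads. The coordinates of all 33890 genes equal GENCODE 29, which gave symbols. Recovered whole numbers are called reads, though they may be read pairs; intervals from them cover counting error only.

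Genes that reached 1 FPKM in 3 or more of the 6 libraries were tested with limma 3.58.1 (R 4.3.3), with trend, on log2(FPKM + 1), group as the only term, 2-sided, Benjamini-Hochberg adjusted over all genes tested at 0.05. Folds are ratios of mean FPKM. Ratios within libraries were tested by exact permutation in Python 3.11.15. Genes, lists and tests were chosen with earlier results of these data known, and a few listed genes are not reported here. The rule for names took, in each list, up to 4 called genes that reached 2 FPKM, by size of change; others were named where 5 or fewer made up a count or after their values were seen. Alternatives were 3 other scalings, no filter, a pseudocount of 0.1, voom on recovered reads, a replicate block and leaving out each library.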

Additional observations from a re-analysis of the deposited data

How the results depend on the processing

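Of the 10 IL6 family genes, 9 kept their direction and their call under all 13 alternatives, and 9 in place of 10 passed with median-ratio scaling and with totals without mitochondrially encoded genes, where OSMR was lost. The number of all genes called was 11624 as reported and 11218 to 11381 without any 1 library, where all 10 family genes passed each time. The log2 change of IL6 ran from 2.01 to 5.91, the highest with voom on recovered reads, which carries no pseudocount of 1 FPKM. That of LIF ran from 1.04 to 1.20, that of CLCF1 from 2.02 to 2.32 and that of SOCS3 from -1.18 to -1.05. PTPN11 reversed with median-ratio scaling, to -0.064 (adjusted p = 0.0175, limma). That scaling divides values by 1.04 to 1.05 in UDCA libraries and by 0.963 to 0.970 in control libraries, which lowers the log2 change of every gene. Which scaling is right was not tested. RC3H1, not past the threshold as reported, passed with voom (adjusted p = 0.0128) and without UDCA replicate 3 (adjusted p = 0.041). PTPN11 passed with quantile normalization (adjusted p = 0.0242), and STAT6 missed the threshold without the filter on low values (adjusted p = 0.0628), where 33890 genes were tested. The difference in log2 OSMR to LIFR ratio ran from 0.63 to 0.75 without any 1 library, and that in log2 IL6R to IL6ST ratio from 0.48 to 0.62. With a pseudocount of 0.1 they were 0.80 and 0.84, and with none, an alternative chosen after seeing the data, 0.82 and 0.88.

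Libraries share replicate numbers only. Deviations from group means of same-numbered libraries correlated at 0.0143, -0.00119 and 0.00725 across genes. No library correlated best with the library of its own number in the other group. With the number as a replicate block, 11503 genes and all 10 family genes were called, and the paired difference in log2 ratio was 0.69 for OSMR to LIFR and 0.56 for IL6R to IL6ST. Depth limits IL6 in control, which rests on 5 reads in all.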
